A study of Arabidopsis thaliana with 32 samples.

Results

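HD-ZIP III, KANADI and YABBY transcription factors set the upper and lower sides of plant organs, and 9 of their genes are described here in Arabidopsis thaliana seeds: PHB, PHV, REV, CNA and ATHB8 (HD-ZIP III), KAN1 and KAN2 (KANADI), and FIL and YAB3 (YABBY). They were chosen by name, as known polarity genes, and all 9 were found by locus identifier among the 33602 genes of each count table. Endosperm and embryo had been taken apart by laser capture microdissection, and poly-A RNA of each was sequenced. The standard crosses are the accessions Col-0 (written Col) and C24 selfed, Col x Col and C24 x C24, and their reciprocal hybrids, Col x C24 and C24 x Col. The CNS (cytonuclear swap) crosses use lines that join the nucleus of 1 accession with the cytoplasm of the other: C24(Col) x C24(Col) and Col(C24) x Col(C24) selfed, a hybrid with Col(C24) as pollen parent, and Col(C24) x Col. Organelle allele reads place the seed parent first in each cross name and show that Col(C24) has Col cytoplasm: C24 made up at most 0.604% of chloroplast allele reads where Col was named first, at least 99.4% in C24 x Col seeds, and at most 0.023% in Col(C24) x Col seeds. The nucleus of Col(C24) is thus that of C24, and C24(Col) has the Col nucleus in C24 cytoplasm. Each of the 16 groups (8 crosses in each of 2 tissues) has 2 libraries. In the CNS hybrid with Col(C24) as pollen parent these are different crosses, Col x Col(C24) in replicate 1 and C24(Col) x Col(C24) in replicate 2, with the same nuclei by label and different cytoplasms. The labels name no seed stage, no number of plants or captured seeds, and no separate plants behind the 2 libraries of a group, so p-values measure the spread between these libraries, which may be technical.

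In leaves and embryos, HD-ZIP III factors promote the upper (adaxial) side of an organ and KANADI factors the lower (abaxial) side, and each family restrains the other. HD-ZIP III messages are cut by the microRNAs miR165 and miR166, which keep them out of the abaxial side, and LITTLE ZIPPER proteins bind HD-ZIP III factors and block them. YABBY genes mark organ primordia, and FIL and YAB3 act with KANADI in the blade of lateral organs. In the embryo PHB, PHV and REV also help to form the shoot apex and the central vascular cylinder, while CNA and ATHB8 are best known from vascular tissue. Endosperm, which nourishes the embryo, is a product of the second fertilisation and forms no organs.

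On the TAIR10 assembly, which the submitters' notes also name, PHB (PHABULOSA, AT2G34710) lies at chr2:14639323-14644355 on the minus strand, PHV (PHAVOLUTA, AT1G30490) at chr1:10796124-10801093 on the minus strand, and REV (REVOLUTA, AT5G60690) at chr5:24396981-24402195 on the plus strand. CNA (CORONA, AT1G52150) lies at chr1:19409688-19414764 and ATHB8 (AT4G32880) at chr4:15863339-15868650, both on the minus strand. KAN1 (AT5G16560, chr5:5406863-5411766), KAN2 (AT1G32240, chr1:11625616-11630745), FIL (FILAMENTOUS FLOWER, AT2G45190, chr2:18628252-18630779) and YAB3 (AT4G00180, chr4:72545-75576) are also on the minus strand. The 9 genes share little sequence that could misplace reads: of all 50-base windows, 0.484% of PHB and 1.62% of PHV stand unchanged in another annotated transcript, each other's among them, and none of the remaining 7. On the other strand, REV overlaps AT5G60700 by 67 bases, and KAN1 overlaps AT5G16550 by 25 and the lncRNA AT5G02555, which is not in the count tables, by 435. The sources used here do not say whether reads were counted by strand.

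The microRNA target site sets the HD-ZIP III genes apart from the KANADI and YABBY genes described here, so its sequences are shown. The RefSeq annotation of TAIR10.1 holds 9 MIR165 and MIR166 loci with 2 mature guide sequences, here with the seed (bases 2 to 8) in capitals. They have the same seed and differ by U17C, counted from the 5′ end, with the base of miR166 first.
miR166 (MIR166A to MIR166G, 7 loci): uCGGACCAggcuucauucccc
miR165 (MIR165A and MIR165B, 2 loci): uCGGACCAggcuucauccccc

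The best match to the complement of miR166 in each HD-ZIP III transcript follows, 5′ to 3′, with capitals for bases that differ from that complement.
PHB and PHV: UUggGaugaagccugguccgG
REV and ATHB8: CUggGaugaagccugguccgG
CNA: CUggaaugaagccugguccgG
All 5 sites are in coding sequence and cross an exon junction, with 11 bases in the upstream exon and 10 in the downstream one (exons 4 and 5, or 5 and 6 in ATHB8), so that the intron splits the site in the gene itself. In PHB the outer bases of the site lie at chr2:14642530-14642666, with an intron of 116 bases inside; in REV they lie at chr5:24398787-24398898, with an intron of 91 bases. Counted from the 5′ end of the site, PHB and PHV differ from the complement by G1U, G2U, A5G and A21G, REV and ATHB8 by G1C, G2U, A5G and A21G, and CNA by G1C, G2U and A21G. The stretch opposite the seed is whole in all 5. The A5G base of 4 sites lies opposite the U17C base that separates miR165 from miR166. KAN1, FIL and YAB3 have no match with fewer than 9 differences and KAN2 none with fewer than 10. Of 27440 annotated transcripts (the longest of each gene), 11 (0.0401%) match with at most 4 differences, and 5 of those 11 are the HD-ZIP III genes. A match is a description of the letters, not a measured cut.

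The 32 libraries held 8640820 to 54288320 counts, and the 16 hybrid libraries 1421299 to 6192604 nuclear allele reads. Levels are TMM-scaled CPM (counts per 1000000 reads counted in genes), given as mean ± SD with n = 16 libraries of a tissue unless said otherwise. Sums of the endosperm and embryo marker lists followed the tissue labels. The sum of 10 endosperm markers was 1720 ± 408 CPM in endosperm, against 73.4 ± 25.8 CPM in embryo, with FIS2, a Polycomb subunit of the central cell and endosperm, which had 59.3 CPM in endosperm, against 0.695 CPM in embryo. HDG3 was the largest part of the endosperm sum, at 993 CPM in standard and 1140 CPM in CNS endosperm. MINI3 was at 0 in every endosperm library. AGL62 (0.296 and 0.348 CPM) and IKU2 (0.113 and 0.11 CPM) were almost unread in standard and CNS endosperm and overlapped embryo. For the 15 embryo markers the sum was 73.2 ± 20.4 CPM in endosperm, against 951 ± 96.1 CPM in embryo. Of these, 14 had an endosperm level of 0.99% (PLT1) to 13.6% (ATML1) of the embryo level, while CUC1 stood at 273%. None of the 15 embryo markers was at 0 throughout endosperm. For 14 seed coat markers the sum was 257 ± 126 CPM in endosperm (107 to 511 CPM) and 44.6 ± 10 CPM in embryo (30.3 to 66.3 CPM). In endosperm this sum was lower in the CNS crosses (170 ± 64.2 CPM) than in the standard crosses (345 ± 112 CPM, n = 8 each). Not all 14 were higher in endosperm. As a share of the embryo level in the standard and CNS crosses, TTG2 stood at 14.7% and 7.62%, GL2 at 73.3% and 31.3%, and MUM4 at 115% and 90.1%. Seed coat is maternal tissue, and 98.1% to 99.9% of the allele reads of these markers were maternal in the 8 hybrid endosperm libraries.

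The polarity genes fell into a pair of groups by tissue. PHB, PHV and REV were abundant in endosperm as well as in embryo, and REV was higher in endosperm. CNA, ATHB8, both KANADI genes and both YABBY genes were all far lower in endosperm. Endosperm was compared with embryo by edgeR's quasi-likelihood test, within the 16 standard libraries and again within the 16 CNS libraries, with Benjamini-Hochberg adjustment over all genes tested and a call at an adjusted p under 0.05. In the standard crosses 8 of the 9 genes were called, 1 higher and 7 lower in endosperm, and in the CNS crosses 7, 1 higher and 6 lower. Calls were the rule among all genes too: 78.8% of 20235 genes were called in the standard crosses (39.1% higher, 39.6% lower) and 68.7% of 21816 in the CNS crosses (34.8% higher, 33.9% lower), so the counts of members are to be read against these shares. The median log2 difference of the 9 genes was -4.85 in the standard and -4.84 in the CNS crosses, against 0.00 and 0.05 over all genes tested. In these bulk samples fewer cells that express a gene and less RNA per cell cannot be told apart.

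**Figure D1:**
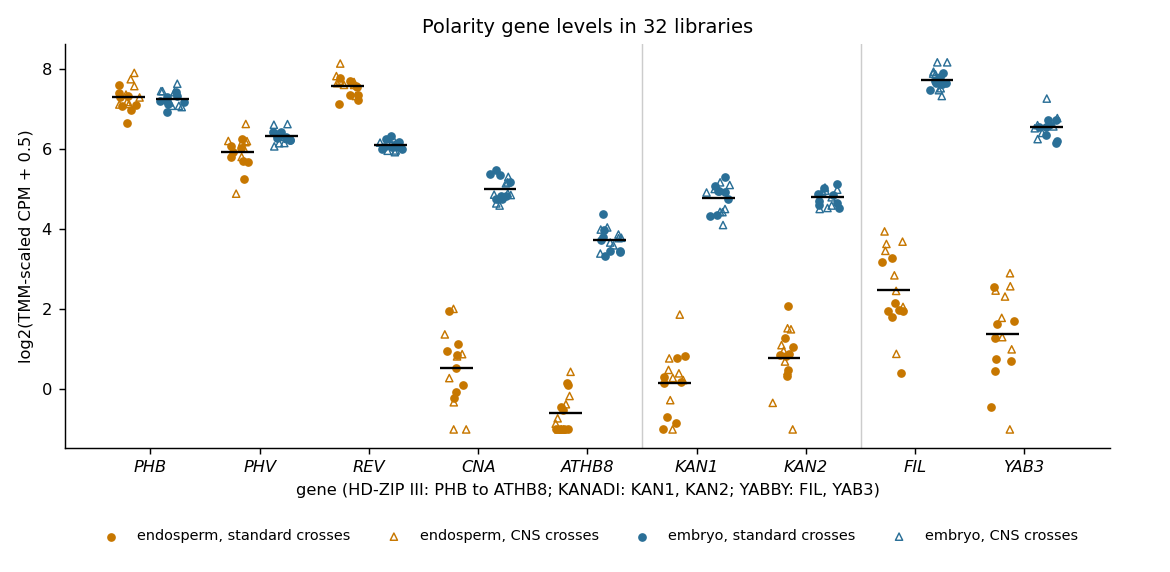
Levels of the 9 genes in each library, on a log2 axis of TMM-scaled CPM with 0.5 added; orange is endosperm and blue embryo, filled circles are standard crosses, open triangles CNS crosses (8 libraries each), and black bars are means over 16 libraries. PHB and PHV overlap between the tissues, REV lies higher in endosperm without overlap, and the other 6 genes lie far lower in endosperm without overlap.

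REV, an HD-ZIP III gene needed for meristems at the base of leaves and for vascular bundles, was the only one of the 9 called higher in endosperm. Its level in endosperm was 186 and 150 CPM in Col x Col, 218 and 164 CPM in C24 x C24, 189 and 206 CPM in Col x C24 hybrids, and 140 and 163 CPM in those of C24 x Col. In the CNS crosses endosperm had 204 and 200 CPM in C24(Col) x C24(Col), 194 and 209 CPM in Col(C24) x Col(C24), 226 CPM in Col x Col(C24), 281 CPM in C24(Col) x Col(C24), and 194 and 160 CPM in Col(C24) x Col. Embryo ranged from 60.2 to 79.3 CPM over all 16 libraries, with a median of 66.6 CPM. Every endosperm library was thus above every embryo library, and the embryo values were held within a narrow range. REV was 2.67-fold higher in endosperm in the standard crosses (log2 difference 1.42 ± 0.10 SE, adjusted p = 1.4e-08, edgeR) and 3.25-fold in the CNS crosses (1.70 ± 0.09, adjusted p = 4.2e-08). The seed coat marker sum lay in the same direction (257 CPM in endosperm, against 44.6 CPM in embryo). In hybrid endosperm at least 98.1% of the allele reads of those markers were maternal, and 54.5% to 71.2% of those of REV. The part of seed coat RNA in the REV values was not tested.

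PHB, whose gain-of-function alleles make leaves with adaxial character all round, had similar levels in both tissues. In endosperm it ranged from 100 to 239 CPM, with a median of 157 CPM and a mean of 160 ± 35.1 CPM; in embryo it ranged from 122 to 198 CPM, with a median of 147 CPM and a mean of 153 ± 20.1 CPM. The highest and the lowest PHB values were both endosperm, C24(Col) x C24(Col) replicate 1 at 239 CPM and C24 x C24 replicate 2 at 100 CPM. The log2 difference was 0.05 ± 0.11 in the standard crosses (95% interval -0.17 to 0.26, adjusted p = 0.71) and 0.20 ± 0.15 in the CNS crosses (-0.08 to 0.49, adjusted p = 0.23). The intervals bound any difference in PHB, and a p that misses the threshold does not show equal levels.

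PHV, the closest relative of PHB, averaged 62.5 ± 16.3 CPM in endosperm (29.1 to 98.4 CPM) and 79.7 ± 8.7 CPM in embryo (66.6 to 98.2 CPM), and the ranges overlap. In the standard crosses PHV was 1.33-fold lower in endosperm (-0.41 ± 0.09, adjusted p = 0.00082). In the CNS crosses the difference did not pass (-0.17 ± 0.21, adjusted p = 0.49). There the endosperm libraries of C24(Col) x C24(Col) lay far apart, at 98.4 and 29.1 CPM, the highest and the lowest PHV values of the tissue. Without the first, replicate 1, the CNS difference was -0.47 ± 0.12 and passed (adjusted p = 0.0038).

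CNA and ATHB8, the HD-ZIP III genes best known from vascular tissue, were low in endosperm. CNA, which limits meristem size together with PHB and PHV, had 1.22 ± 1.06 CPM in endosperm, against 32.1 ± 6.5 CPM in embryo. ATHB8, a marker of procambium, the tissue that becomes vasculature, had 0.207 ± 0.27 CPM in endosperm, against 13.0 ± 2.84 CPM in embryo. ATHB8 had no read in 7 of 16 endosperm libraries and at most 25 reads in any; it had 154 to 658 reads in each embryo library. CNA had no read in 2 endosperm libraries, C24(Col) x C24(Col) replicate 2 and C24(Col) x Col(C24), where a count of 0 allows levels of up to 0.118 and 0.128 CPM (3 counts; counting error only). CNA was 28.8-fold lower in endosperm in the standard crosses (-4.85 ± 0.29, adjusted p = 2.7e-09) and 30.0-fold in the CNS crosses (-4.91 ± 0.66, adjusted p = 3.5e-05). ATHB8 was 65.9-fold lower in the standard crosses (-6.04 ± 0.50, adjusted p = 7.1e-08) and 71.7-fold in the CNS crosses (-6.16 ± 0.73, adjusted p = 1.3e-05). The sizes rest on few endosperm reads: without C24(Col) x C24(Col) replicate 1, whose partner library had no read of either gene, the CNS differences were -7.00 (CNA) and -7.94 (ATHB8), and without Col x Col replicate 2 the standard difference of ATHB8 was -7.40.

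**Figure D2:**
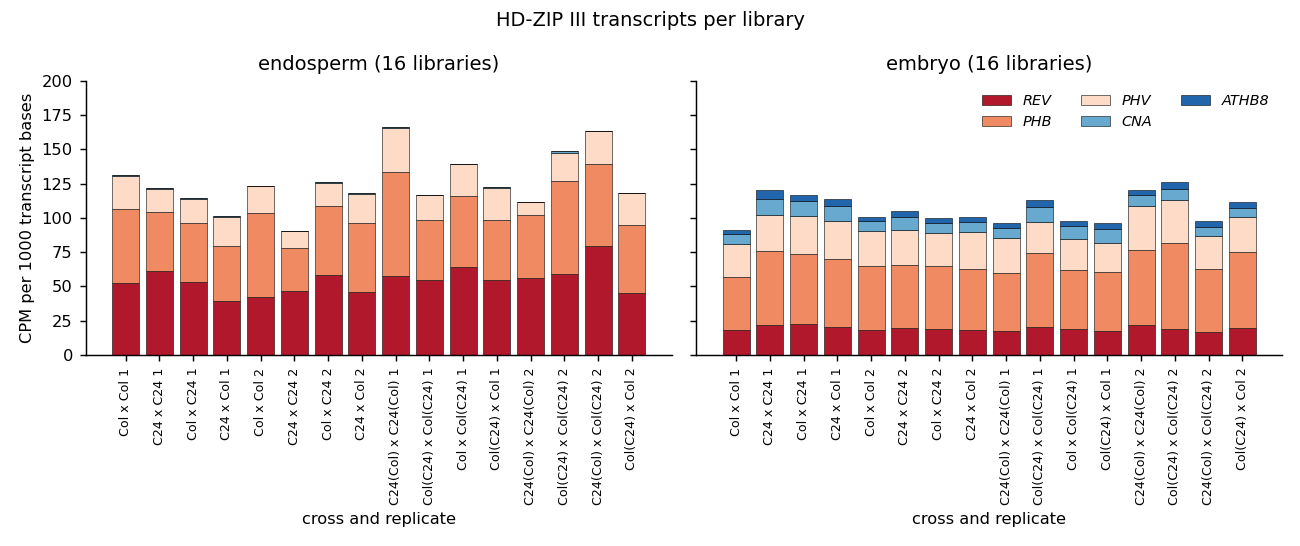
HD-ZIP III levels per library, stacked by gene in CPM per 1000 transcript bases, with endosperm libraries on the left and embryo libraries on the right. REV and PHB make up most of each endosperm bar and CNA and ATHB8 are hardly visible there, while in each embryo bar PHB is the largest part and all 5 genes show.

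The HD-ZIP III genes summed to 303 to 545 CPM in endosperm and 296 to 406 CPM in embryo, overlapping sums with a different make-up. Per 1000 transcript bases, REV made up 43.4 ± 5.61% of the HD-ZIP III sum in endosperm and 18.1 ± 1.09% in embryo. PHB made up 40.2 ± 4.16% in endosperm and 45.5 ± 2.18% in embryo, and PHV 16.1 ± 3.22% and 24.3 ± 1.85%, in the same order of tissues. CNA and ATHB8 came to 0.268 ± 0.22% and 0.0487 ± 0.0607% in endosperm, and to 8.31 ± 1.47% and 3.84 ± 0.584% in embryo. The REV share ran from 34.3% to 51.1% in endosperm and from 14.8% to 19.6% in embryo, with no overlap. These shares are descriptions of the same values as the tests above.

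KAN1 and KAN2, which specify abaxial cells and restrict auxin transport in the embryo's flank, were both far lower in endosperm. KAN1 had 0.78 ± 0.76 CPM in endosperm (0 to 3.15 CPM, at most 74 reads) and 27.5 ± 6.65 CPM in embryo (16.7 to 38.9 CPM). KAN2 had 1.43 ± 0.885 CPM in endosperm (0 to 3.71 CPM, at most 68 reads) and 27.6 ± 4.03 CPM in embryo (22.2 to 34.5 CPM). The lowest embryo library was well above the highest endosperm library for both. Embryo levels moved with the replicate number, to which the labels give no meaning: replicate 1 was the higher library of the pair in 8 of 8 groups for KAN1 (means 33.0 and 22.1 CPM) and for KAN2 (31.1 and 24.1 CPM). The log2 difference of KAN1 was -6.18 ± 0.37 in the standard crosses (72.3-fold lower, adjusted p = 2.2e-09) and -4.97 ± 0.49 in the CNS crosses (31.4-fold, adjusted p = 2.9e-06). That of KAN2 was -4.17 ± 0.21 (18.0-fold, adjusted p = 4e-10) and -4.38 ± 0.58 (20.8-fold, adjusted p = 3.3e-05) in the same order. Without C24(Col) x C24(Col) replicate 1 the CNS differences were -6.69 (KAN1) and -6.52 (KAN2), and without C24 x C24 replicate 1, which held 18 of the 19 KAN1 reads of that group, the standard difference of KAN1 was -7.01.

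FIL and YAB3, which act redundantly in lateral organs, were the strongest of the 9 genes in embryo per transcript length. FIL had 6.39 ± 4.31 CPM in endosperm (0.838 to 14.9 CPM) and 215 ± 37.0 CPM in embryo (160.0 to 287 CPM), where replicate 2 was the higher library in 8 of 8 groups (means 193 CPM in replicate 1 and 237 CPM in replicate 2). YAB3 had 2.78 ± 2.09 CPM in endosperm (0 to 6.97 CPM) and 95.3 ± 19.3 CPM in embryo (70.7 to 153 CPM). FIL was 46.8-fold lower in endosperm in the standard crosses (-5.55 ± 0.26, adjusted p = 2.4e-10) and 28.8-fold in the CNS crosses (-4.85 ± 0.35, adjusted p = 2.6e-07). YAB3 was 45.4-fold lower in the standard crosses (-5.51 ± 0.31, adjusted p = 1.4e-09) and 28.7-fold in the CNS crosses (-4.84 ± 0.59, adjusted p = 1.5e-05). YAB3 differed by -7.24 in the CNS crosses without Col(C24) x Col replicate 1, whose partner library had no read of YAB3, and by -6.21 in the standard crosses without Col x C24 replicate 2.

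**Figure D3:**
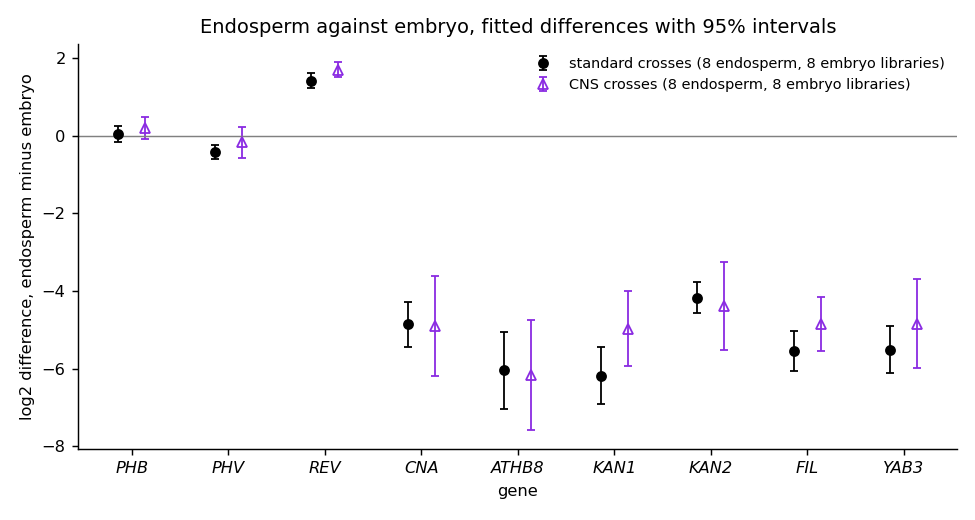
Fitted log2 difference, endosperm minus embryo, for each gene, with 95% intervals; circles are the standard crosses and triangles the CNS crosses, each from 8 endosperm and 8 embryo libraries. REV lies above 0 in both, the intervals of PHB include 0 in both, the interval of PHV lies below 0 in the standard crosses and includes 0 in the CNS crosses, and the other 6 genes lie below -4.

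The reads of the 6 embryo genes in endosperm stood beside those of other embryo genes. As a share of the embryo level, endosperm held 3.79% of CNA, 1.58% of ATHB8, 2.83% of KAN1, 5.2% of KAN2, 2.97% of FIL and 2.92% of YAB3, against the 0.99% to 13.6% of the 14 embryo markers given above. PHB stood at 105%, PHV at 78.4% and REV at 283%. The embryo marker sum, which includes CUC1, was lowest in Col x C24 replicate 2 (49.7 CPM) and highest in C24(Col) x Col(C24) (112 CPM). FIL had 3.38 and 14.9 CPM in these endosperm libraries, the YABBY sum was 5.98 and 21.9 CPM, and the KANADI sum 0.91 and 5.53 CPM. CNA went the other way, with no read in C24(Col) x Col(C24), against 0.585 and 0.958 CPM in the Col x C24 libraries. The lowest FIL value, 0.838 CPM, was in Col x C24 replicate 1, whose marker sum was 58.8 CPM. The part of embryo RNA in the endosperm values of these 6 genes was not tested.

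Ordered per 1000 transcript bases, the genes ran differently in the 2 tissues. Endosperm ran REV (54.4 ± 9.63 CPM per 1000 bases), PHB (50.9 ± 11.2), PHV (20.3 ± 5.31), FIL (5.74 ± 3.87), YAB3 (1.89 ± 1.42), KAN2 (0.564 ± 0.348), CNA (0.336 ± 0.294), KAN1 (0.327 ± 0.319) and ATHB8 (0.0653 ± 0.0855). The means of REV and PHB differed by less than the larger SD, with REV above PHB in 9 of 16 libraries, while PHB above PHV and PHV above FIL held in 16 of 16. From FIL to ATHB8 the means of neighbours also differed by less than the larger SD. Library by library, FIL was above YAB3 in 16 of 16, YAB3 above KAN2 in 14, KAN2 above CNA in 12, CNA above KAN1 in 10 and KAN1 above ATHB8 in 13. Embryo ran FIL (193 ± 33.1), YAB3 (64.9 ± 13.1), PHB (48.7 ± 6.4), PHV (25.9 ± 2.83), REV (19.2 ± 1.61), KAN1 (11.5 ± 2.78), KAN2 (10.9 ± 1.59), CNA (8.86 ± 1.8) and ATHB8 (4.13 ± 0.90). There the KANADI pair was the only pair of neighbours within their spread, with KAN1 above KAN2 in 10 of 16 libraries. REV was on average 2.89 ± 1.05 times PHV per transcript base in endosperm and 0.748 ± 0.0729 times PHV in embryo, while the ratio of FIL to YAB3 was 3.43 ± 1.28 in endosperm (15 libraries, since YAB3 was at 0 in the other) and 3.06 ± 0.728 in embryo.

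The tissue difference of the CNS crosses was then compared with that of the standard crosses in a fit of all 32 libraries. None of the 9 genes was called, nor any of the 22254 genes tested (0.0%; 1433 had an unadjusted p under 0.05, and DESeq2 called 54). The nearest was REV, with a log2 difference of 0.29 ± 0.13 between the sets (95% interval 0.03 to 0.54, adjusted p = 0.74), followed by FIL (0.71 ± 0.41, adjusted p = 0.82) and KAN1 (1.22 ± 0.72, -0.20 to 2.64, adjusted p = 0.83). The intervals are narrow for REV and PHB (0.16, -0.19 to 0.50) and wide for CNA (-0.07, -1.40 to 1.26) and ATHB8 (-0.09 ± 0.96), which had few endosperm reads. The seed coat sum, lower in CNS than in standard endosperm, moved with the set, and its part was not tested.

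Genes of the wider polarity network, a list of 41 drawn up by role, followed the same division in most roles. In the standard crosses 29 of the 41 passed the low-count filter, of which 5 were called higher and 23 lower in endosperm, with a median log2 difference of -1.57 against 0.00 over all genes tested. In the CNS crosses 30 passed, 4 were called higher and 22 lower, with a median of -2.51 against 0.05. Seen against the 39.6% and 33.9% of all genes called lower, 23 of 29 and 22 of 30 describe this list and were not tested further.

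Among antagonists and partners of HD-ZIP III, the LITTLE ZIPPER gene ZPR4 was also called higher, with 55.2 ± 24.8 CPM in endosperm, against 16.3 ± 5.62 CPM in embryo (log2 difference 1.5 ± 0.10 in the standard and 2.21 ± 0.39 in the CNS crosses). ZPR3 did not pass in either set, and ZPR1 fell in the standard crosses alone (-0.84 ± 0.32, adjusted p = 0.027; 0.31 ± 0.39 in the CNS crosses). ZPR2 was called higher in the standard crosses at a level of only 0.187 CPM in endosperm, with at most 13 reads in a library. TAA1, an auxin synthesis gene that REV is known to activate, had 136 ± 66.8 CPM in endosperm, against 32.8 ± 7.47 CPM in embryo (2.24 ± 0.18 and 1.75 ± 0.15). The other REV targets of the list that could be tested, HAT3 and ATHB4, which code for adaxial HD-ZIP II factors, fell (HAT3 -2.49 ± 0.13 and -2.48 ± 0.20; ATHB4 -1.09 ± 0.15 and -0.87 ± 0.15).

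Both Argonaute genes of the microRNA branch were lower in endosperm. AGO10, an Argonaute that sequesters miR165 and miR166 and so protects HD-ZIP III messages, had 25.6 ± 8.82 CPM in endosperm, against 183 ± 25.8 CPM in embryo (-2.97 ± 0.17 and -2.65 ± 0.15). AGO1, the Argonaute that cuts microRNA targets, had 136 ± 24.3 CPM in endosperm, against 296 ± 41.8 CPM in embryo (-1.02 ± 0.12 and -1.08 ± 0.12). The 9 MIR165 and MIR166 precursor loci were almost unread in these poly-A libraries, with at most 12 reads of a locus in any endosperm library and 18 in any embryo library. MIR166A was called lower in the CNS crosses, where it had no read in endosperm, while MIR166C had reads in 1 endosperm library and in no embryo library, and MIR166E, MIR166F and MIR166G had none in either tissue. Mature microRNAs were not measured.

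The margin genes and most YABBY genes of the list were far lower in endosperm. WOX1 and WOX3, homeobox genes of the organ margin, had 0.0691 ± 0.112 and 0.224 ± 0.328 CPM in endosperm and 6.59 ± 1.59 and 9.60 ± 2.82 CPM in embryo. DRNL, which codes for a partner of HD-ZIP III factors, had 0.135 ± 0.232 CPM in endosperm, against 6.01 ± 2.85 CPM in embryo. Some endosperm groups had no read of these 3 genes, so their fitted differences depend on how a 0 is handled. The remaining vegetative YABBY genes went with FIL and YAB3: YAB5 differed by -5.58 ± 0.45 and -5.15 ± 0.60, and YAB2 by -5.08 ± 0.35 and -6.14 ± 0.51. CRC, a YABBY gene of the carpel, was called lower in the standard crosses alone (-1.57 ± 0.48, adjusted p = 0.0088; -2.54 ± 1.10, adjusted p = 0.061 in the CNS crosses). KAN4, which acts in the ovule's inner coat, differed by -5.33 ± 0.40 and -4.04 ± 0.38, and KAN3 by -1.88 ± 0.27 and -2.54 ± 0.75. AS1 and AS2, which together repress KANADI and meristem genes, differed by -4.21 ± 0.19 and -4.26 ± 0.24 and by -5.07 ± 0.42 and -4.28 ± 0.72. The tasiRNA branch was spread widely: TAS3, which gives rise to the tasiRNAs, differed by -4.15 ± 0.43 and -3.69 ± 0.92 and AGO7, its Argonaute, by -3.74 ± 0.19 and -4.09 ± 0.56. Their targets ARF3 and ARF4, which code for abaxial auxin response factors, differed by -2.41 ± 0.13 and -2.32 ± 0.25 and by -1.22 ± 0.11 and -0.94 ± 0.21. INO, a YABBY gene of the outer ovule coat, had no read in any endosperm library and reads in 1 embryo library. Exceptions with higher endosperm levels were LUH, a corepressor that works with YABBY factors (0.79 ± 0.15 and 0.93 ± 0.13), and DCL4, a Dicer that makes tasiRNAs (0.53 ± 0.14 and 1.07 ± 0.12).

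**Figure D4:**
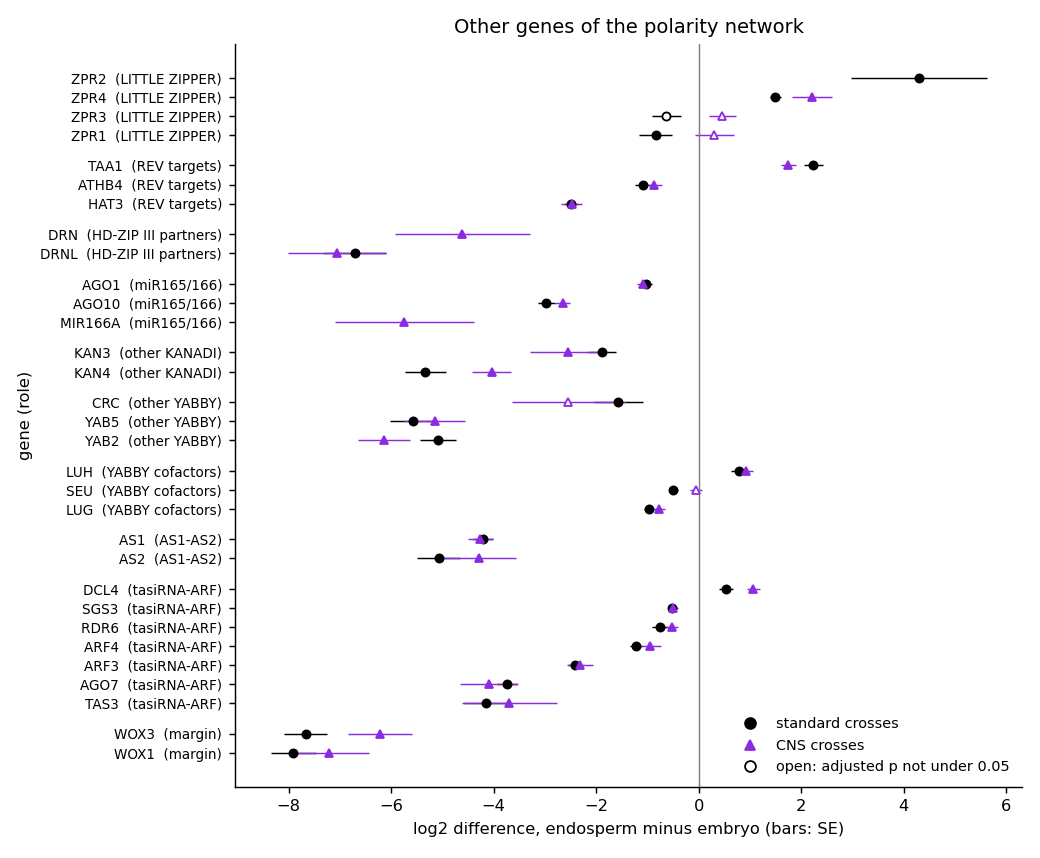
Fitted log2 difference, endosperm minus embryo, with SE, for the 31 genes of the network list that could be tested in at least 1 set, grouped by role; circles are standard and triangles CNS crosses, and open symbols did not pass. ZPR4, TAA1, LUH and DCL4 lie above 0 in both sets, and the lowest values in both sets are those of WOX1, WOX3 and DRNL, which had no read in some endosperm groups.

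Across all 32 libraries the genes whose level followed each family most closely were sought by the Pearson correlation of log2(CPM + 0.5) with the family's sum. For the KANADI sum these were CYCA2;3 (r = 0.989), NF-YA6 (0.985) and ER (0.982), and for the YABBY sum AT3G05600 (0.994), PEL3 (0.993) and SCPL25 (0.992). All 6 were far lower in endosperm, such as ER with 9.33 CPM in endosperm, against 323 CPM in embryo, so these values mostly restate the tissue difference. For the HD-ZIP III sum, whose ranges overlap between the tissues, the closest were GRF2 (r = 0.762), AT2G30942 (0.742) and SPP1 (0.738). All were higher in endosperm, such as GRF2 with 479 CPM, against 293 CPM in embryo, so these values also carry a tissue difference. SPP1 was low in both tissues (0.873 CPM in endosperm and 0.158 CPM in embryo). Within a tissue the pairs of one family varied. KAN1 and KAN2 had r = 0.417 across the 16 endosperm libraries and 0.875 across the 16 embryo libraries, and within embryo 0.787 over the 8 libraries of replicate 1 and 0.42 over those of replicate 2. FIL and YAB3 had r = 0.877 in endosperm and 0.23 in embryo. PHB and PHV had 0.612 in endosperm and 0.633 in embryo, against 0.457 over all 32 libraries. These are descriptions over libraries that share crosses and depth differences, with no test.

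Whether the nucleus, the cross direction or hybridity shifted the polarity genes was asked within each tissue, in a fit of its 16 libraries. None of the 9 genes was called in any of the 10 comparisons. At an unadjusted p under 0.05 there were 6 values among the 90, and the embryo ones came from the selfed accessions. Over all 21210 genes tested in endosperm, Col x Col against C24 x C24 gave calls for 7.96% (4.94% higher, 3.02% lower) and C24(Col) x C24(Col) against Col(C24) x Col(C24) for 7.9% (4.24% higher, 3.66% lower). Over the 19942 genes tested in embryo the shares were 4.04% (2.25% higher, 1.79% lower) and 4.51% (2.16% higher, 2.35% lower). For the reciprocal standard hybrids the shares were 0.222% in endosperm (0.0896% higher, 0.132% lower) and 0.00501% in embryo, all of it higher. For the CNS hybrids they were 0.325% in endosperm (0.0943% higher, 0.231% lower) and 0.0% in embryo, where 660 genes had an unadjusted p under 0.05 by edgeR and DESeq2 called 15. Standard hybrids against their selfed parents gave 0.717% in endosperm and 0.471% in embryo, all higher.

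Between the selfed accessions, the lowest p belonged to ATHB8 in embryo, which had 10.3 and 9.58 CPM in Col x Col and 20.5 and 13.4 CPM in C24 x C24. The log2 difference was -0.83 ± 0.26 (unadjusted p = 0.0068, adjusted p = 0.11, edgeR). The CNS lines with the same nuclei had 10 and 13.3 CPM in C24(Col) x C24(Col) and 16.0 and 15.4 CPM in Col(C24) x Col(C24), at -0.48 ± 0.25 (adjusted p = 0.36). CNA lay the same way in embryo, with 26.3 and 27.8 CPM in Col x Col and 43.9 and 35.8 CPM in C24 x C24 (-0.62 ± 0.28, adjusted p = 0.29). Its CNS difference was -0.28 ± 0.27 (adjusted p = 0.69). In endosperm PHB had 170.0 and 193 CPM in Col x Col and 135 and 100 CPM in C24 x C24 (0.64 ± 0.28, adjusted p = 0.20), and its CNS difference was 0.09 ± 0.28. For the 3 abundant genes the intervals bound any difference: REV in endosperm lay between -0.60 and 0.26 for Col x Col against C24 x C24 and between -0.46 and 0.40 for the CNS lines.

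Of the network list, SGS3, which helps to make tasiRNAs, was the one gene called between selfed seeds, and it was called lower with the Col nucleus in all 4 comparisons. Its log2 difference was -2.26 ± 0.22 in endosperm (adjusted p = 1.6e-05) and -1.02 ± 0.16 in embryo (adjusted p = 0.0027) for Col x Col against C24 x C24. For C24(Col) x C24(Col) against Col(C24) x Col(C24) it was -1.51 ± 0.21 in endosperm (adjusted p = 0.00042) and -0.67 ± 0.16 in embryo (adjusted p = 0.033).

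None of the 9 genes was called between directions of the cross. In endosperm REV had 189 and 206 CPM in Col x C24, against 140 and 163 CPM in C24 x Col (0.35 ± 0.22, 95% interval -0.09 to 0.78, adjusted p = 0.80, edgeR). The CNS hybrids lay the same way, with 226 and 281 CPM with Col(C24) as pollen parent and 194 and 160 CPM in Col(C24) x Col (0.51 ± 0.22, 0.08 to 0.94, unadjusted p = 0.036, adjusted p = 0.37). FIL in endosperm had 10.5 and 14.9 CPM with Col(C24) as pollen parent and 5.00 and 1.35 CPM in Col(C24) x Col (1.99 ± 0.77, adjusted p = 0.31), a difference that passed when no low-count filter was used (adjusted p = 0.009). The standard hybrids lay the other way, with 0.838 and 3.38 CPM of FIL in Col x C24, against 2.99 and 3.37 CPM in C24 x Col (-0.58 ± 0.79). The embryo marker sums of the same endosperm libraries were 93.8 and 112 CPM with Col(C24) as pollen parent and 68.4 and 52.0 CPM in Col(C24) x Col. They include CUC1, at 17.9 CPM in CNS endosperm, against 7.24 CPM in CNS embryo. The part of embryo RNA in the FIL values was not tested. In embryo all 9 genes differed between reciprocal hybrids by at most 0.35 on the log2 scale in the standard and 0.32 in the CNS crosses.

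Hybrids of the standard crosses were compared with the mean of both selfed parents on the log scale. In embryo the 9 differences lay between -0.12 (ATHB8) and 0.14 (YAB3), with standard errors of 0.10 to 0.26. In endosperm PHB differed by -0.01 ± 0.20, PHV by 0.12 ± 0.27 and REV by -0.04 ± 0.16. The 6 embryo genes all had negative values in hybrid endosperm, from -0.65 ± 1.00 (KAN2) to -2.11 ± 1.34 (KAN1), with FIL at -1.25 ± 0.55 (unadjusted p = 0.04, adjusted p = 0.70). The 14 embryo markers that could be tested had a median fitted value of -2.80 in the same comparison, with none called. The summed level of the embryo marker list was 49.7 to 58.8 CPM in hybrid endosperm, against 60.2 to 109 CPM in that of the selfed parents. This sum includes CUC1, which had 17.3 CPM in standard endosperm, against 5.64 CPM in standard embryo. The part of embryo RNA in these values was not tested.

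Allele reads show which parental copy was read. Endosperm has 2 maternal genomes and 1 paternal, which gives a maternal share of 66.7% where dosage alone decides, and embryo has equal numbers. Only PHB, PHV and REV had at least 10 allele reads in every hybrid endosperm library; in embryo the same held for these and ATHB8, KAN1, KAN2 and YAB3, while CNA and FIL had too few. Maternal against paternal reads were tested relative to dosage with edgeR's quasi-likelihood test on the allele counts, with the library as a block and a term for C24 against Col. No member was called in any of the 4 tests, in which 4.09% of 8271 genes were called in standard endosperm, 1.06% of 9654 in standard embryo, 2.4% of 9219 in CNS endosperm and 0.0613% of 9794 in CNS embryo.

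**Figure D5:**
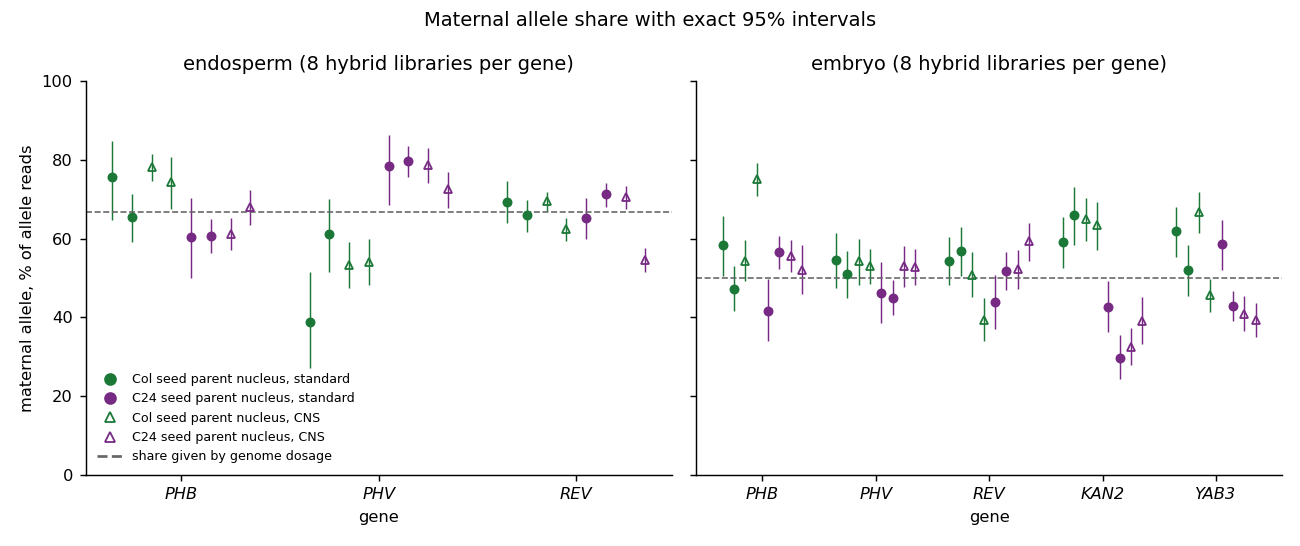
Maternal share of allele reads in each hybrid library (8 per tissue and gene) with exact 95% binomial intervals, in green where the seed parent has the Col nucleus and in purple where it has the C24 nucleus, filled for standard and open for CNS crosses; the dashed line is the share given by genome dosage, 66.7% in endosperm and equal shares in embryo. REV and PHB lie around the endosperm line, with most PHB shares higher where the seed parent has the Col nucleus. PHV in endosperm and KAN2 in embryo part by the nucleus of the seed parent without overlap.

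In endosperm REV was read from both parents close to dosage. The maternal share of REV was 69.4% and 65.9% in Col x C24 libraries, and 65.3% and 71.2% in those of C24 x Col, from 304 to 910 allele reads per library. The mean was 68.0 ± 2.82% (SD, n = 4), and the log2 difference from dosage was 0.09 ± 0.14 (95% interval -0.18 to 0.36, adjusted p = 0.90). In the CNS hybrids it was 64.2 ± 7.45%, with Col(C24) x Col replicate 2 lowest at 54.5% (exact 95% interval 51.4% to 57.5%, counting error only). PHB had 65.5 ± 7.1% in the standard and 70.4 ± 7.46% in the CNS hybrids, with log2 differences from dosage of -0.09 ± 0.22 and 0.28 ± 0.25. Its share was 65.4% to 78.1% with the Col nucleus in the seed parent and 60.4% to 68.1% with the C24 nucleus. C24 over Col was -0.29 ± 0.22 in the standard and -0.41 ± 0.25 in the CNS hybrids, and neither was called. Paternal reads came to 660 of REV against 1442 maternal ones in the standard hybrids, and to 335 of PHB against 575. The seed coat markers of the same libraries had at least 98.1% maternal reads.

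For PHV in endosperm the maternal term was also small (-0.01 ± 0.27 in the standard and -0.07 ± 0.27 in the CNS hybrids), but the maternal share followed the accession of the seed parent. With C24 as seed parent its maternal share was 78.3% and 79.7% in C24 x Col, and 78.7% and 72.6% in Col(C24) x Col. With the Col nucleus as seed parent it was 38.8% and 61.1% in Col x C24, 53.3% in Col x Col(C24) and 54.1% in C24(Col) x Col(C24). In all 8 libraries the C24 allele was thus above its share by dosage, while C24 took 29.9% to 31.7% of all nuclear allele reads with the Col nucleus as seed parent and 61.5% to 64.1% with the C24 nucleus. C24 over Col was 0.93 ± 0.27 in the standard hybrids (adjusted p = 0.044) and 0.71 ± 0.27 in the CNS hybrids (adjusted p = 0.17, not called), where this term called 12.5% and 6.86% of all genes tested. Those shares are 1037 and 632 genes and rest on single libraries: the standard count was 2254 without Col x C24 replicate 1 and 291 and 244 without C24 x Col replicates 1 and 2, and the CNS count was 288 and 195 without Col(C24) x Col replicates 1 and 2 and 380 without Col x Col(C24). The standard call did not pass without Col x C24 replicate 1 (0.64 ± 0.27, adjusted p = 0.076), or without either C24 x Col library (0.97 ± 0.37 and 0.91 ± 0.43, adjusted p = 0.32 and 0.48). In embryo the PHV difference was -0.20 ± 0.14 and -0.02 ± 0.15. The level of PHV in selfed endosperm did not show a difference towards C24. Its mean was 68.1 CPM in Col x Col and 44.2 CPM in C24 x C24 (0.64 ± 0.38, adjusted p = 0.36, edgeR, not called). For C24(Col) x C24(Col) against Col(C24) x Col(C24) the difference was 0.06 ± 0.37 (adjusted p = 0.96).

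KAN2 in embryo was called between alleles in both sets, towards Col. The C24 allele of KAN2 had 40.9% and 33.9% of the reads with Col x C24 as the cross, 42.7% and 29.7% in C24 x Col, 35.0% in Col x Col(C24), 36.5% in C24(Col) x Col(C24), and 32.5% and 39.0% in Col(C24) x Col, from 168 to 403 allele reads a library. C24 was the lower allele in all 8 libraries whichever parent it came from. Over all nuclear reads of these libraries the C24 share was 45.6% to 48.8%. C24 over Col was -0.78 ± 0.16 in the standard embryos (adjusted p = 0.00028) and -0.85 ± 0.18 in the CNS embryos (adjusted p = 0.022), where the term called 17.3% and 7.71% of all genes. The standard count of 1672 genes was 1112 and 1040 without Col x C24 replicates 1 and 2 and 1099 without C24 x Col replicate 2. The CNS count of 755 was 2142 without Col x Col(C24) and 152 and 168 without Col(C24) x Col replicates 1 and 2. The CNS call did not pass without Col(C24) x Col replicate 1 (-0.74 ± 0.26, adjusted p = 0.31) or replicate 2 (-0.95 ± 0.24, adjusted p = 0.14). The level of KAN2 in selfed embryos did not show the same difference, with 32.2 and 24.8 CPM in Col x Col and 28.6 and 22.7 CPM in C24 x C24 (0.09 ± 0.24, 95% interval -0.39 to 0.57).

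Maternal shares of the other embryo genes were averaged over both cross directions. Such a mean does not show a difference between Col and C24 alleles: that of KAN2 was 49.4 ± 16.4%. In the standard embryos the mean maternal share was 51.0 ± 7.83% for PHB, 49.1 ± 4.38% for PHV, 51.7 ± 5.66% for REV, 49.5 ± 6.73% for KAN1 and 53.8 ± 8.34% for YAB3 (SD, n = 4). ATHB8 had 42.7 ± 17% from 16 to 49 reads per library. Single libraries of YAB3 ran from 42.9% to 61.8%. In the CNS embryos the means were 59.3 ± 10.6% (PHB), 53.2 ± 0.69% (PHV), 50.4 ± 8.24% (REV), 43.5 ± 5.44% (KAN1), 48.1 ± 12.7% (YAB3) and 39.8 ± 19.8% (ATHB8). Values in C24(Col) x Col(C24) embryo stood apart for some members: PHB had 319 maternal (Col) and 106 paternal (C24) reads, a maternal share of 75.1%, against 52.1% to 55.5% in the other 3 CNS embryo libraries, and ATHB8 had 7 maternal and 56 paternal reads. The maternal term of PHB in CNS embryos was 0.57 ± 0.22 (unadjusted p = 0.031, adjusted p = 0.98, edgeR). Without Col x Col(C24) it was 0.91, in a fit where C24(Col) x Col(C24) was the only library with a Col-nucleus seed parent. In that fit the C24 terms of PHB and ATHB8 were -0.68 and 1.37, against -0.34 and 0.49 with all libraries. That of YAB3 was -0.46 ± 0.21 (adjusted p = 0.26, edgeR) with all libraries and -0.79 without C24(Col) x Col(C24). Each refit rests on a single library for the Col nucleus. The nuclear segments around PHB and ATHB8 were shifted little in C24(Col) x Col(C24) embryo. In windows 500000 bases wide, centred on the gene's start coordinate, the median C24 share lay -2.55 points (PHB) and 3.49 points (ATHB8) from the library's median. The largest shift in 144 such windows around the 9 genes was -12.9 points. It was that of CNA in endosperm of the same cross (17.1%, against a library median of 30.1%). YAB3 in endosperm of the same cross had 0 maternal and 54 paternal reads, but in Col x Col(C24) endosperm 17 maternal and 1 paternal, and it was not tested. KAN2 in endosperm had 2 to 20 allele reads a library, all paternal in Col x C24 (7 and 3 reads) and all maternal in C24(Col) x Col(C24) (18 reads), which gives no common direction.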

How the data were processed

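Endosperm and embryo RNA was measured in 32 libraries, 2 for each of 16 groups. The authors deposited counts of reads per gene, which are not normalized, and counts of Col and C24 allele reads per gene; Trimmomatic, STAR, HTSeq and edgeR with TAIR10 are named per the submitters' processing notes, with no versions. HTSeq's 5 summary lines were left out; reads assigned to no gene were 2.28% to 17.7%. Depth was 8640820 to 54288320 counts. Counts were tested with edgeR 4.0.16 (R 4.3.3), by quasi-likelihood after TMM scaling and filterByExpr with a minimum count of 10, adjusted over all genes tested. Tissue fits used the 16 libraries of a set and within-tissue fits the 16 of a tissue; leave-one-out refits of all 32 libraries kept the dispersion trend of the full fit. Allele counts were fitted with a library block, a dosage offset and at least 10 allele reads in each library. Binomial intervals are exact (Clopper-Pearson) and, like floors of 3 counts, cover counting error only. Scripts were tested on simulated counts. Alternatives were DESeq2 1.42.0, library totals, no low-count filter, the replicate number as a block, fewer groups, each library left out, another dosage and 5 allele reads. Sequences come from the RefSeq annotation of TAIR10.1. All 9 genes are named throughout; of the network list, the 5 called genes with the largest difference in each direction and those called within a tissue are named by rule, and ZPR1, ZPR3, HAT3, ATHB4, AGO10, AGO1, AS1, AS2, YAB2, KAN3, CRC, TAS3, AGO7, ARF3, ARF4 where outside it, MIR166C, MIR166E to MIR166G and INO were named after their values were seen. The 9 genes and all lists were chosen with earlier results of these data known.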

Additional observations from a re-analysis of the deposited data

Results flagged for a closer look

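KAN1 in endosperm lay in opposite directions between reciprocal hybrids of the standard and the CNS crosses. It had 0.120 and 0 CPM in Col x C24, against 0.646 and 0.622 CPM in C24 x Col, from 1, 0, 8 and 19 reads. Among the CNS hybrids it had 0.901 CPM in Col x Col(C24) and 3.15 CPM in C24(Col) x Col(C24), against 0.820 and 0.330 CPM in Col(C24) x Col, from 34, 74, 30 and 11 reads. On the scale of log2(CPM + 0.5), the standard ratio of means minus the CNS ratio was -2.25. The difference was not tested, and neither reciprocal comparison passed by itself (-3.61 ± 2.11 and 1.79 ± 1.63, edgeR).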

How the results depend on the processing

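The number of the 9 genes called did not change in the standard tissue comparison, and the 7 genes other than PHB and PHV kept their direction and their call in both tissue comparisons under every alternative run. In the CNS crosses 7 to 8 were called with a library left out, 8 without endosperm C24(Col) x C24(Col) replicate 1 (PHV). Within tissues, leaving out a library gave 0 to 2 calls for C24(Col) x C24(Col) against Col(C24) x Col(C24) in endosperm. The 2, without C24(Col) x C24(Col) replicate 1, were PHV (-1.04, range with a library left out -1.04 to 0.68) and KAN2 (-7.75, no read in the library left). The CNS reciprocal hybrids in endosperm gave 1 call with no low-count filter (FIL, 2.00) and 0 to 1 with a library left out (YAB3, without Col(C24) x Col replicate 1, where the library left had no read). With the replicate block, Col x Col against C24 x C24 in embryo gave 1 call (ATHB8, -0.79 ± 0.18, adjusted p = 0.014), and no other member call changed. The labels give the numbers no meaning, and they were not taken as pairs, since that needed a correlation over 0.1 in every pair of groups: same-numbered libraries had a median correlation of 0.087 in the standard and 0.13 in the CNS crosses, over 0.1 in 12 and 22 of 28 pairs. The numbers did carry a shared difference in places: besides KAN1, KAN2 and FIL in embryo, replicate 1 of the CNS crosses had more genes with reads in 4 of 4 groups in each tissue. With a dosage of 1:1 in endosperm, 3 of 3 genes were called maternal in both sets, with PHB at 0.91 and PHV at 0.98 in the standard and PHV at 0.93 and REV at 0.86 in the CNS hybrids. With 2:1 in embryo, 7 of 7 were called paternal in the standard hybrids (PHB -0.92, REV -0.89, YAB3 -0.81) and 5 in the CNS hybrids (PHV -0.82, REV -0.98); these offsets shift every gene by construction. In CNS embryos the maternal term of PHB was 0.91 without Col x Col(C24), which left C24(Col) x Col(C24) as the only library with a Col-nucleus seed parent.

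Counts over all genes moved more. Col x Col against C24 x C24 gave 1689 calls in endosperm, but 2632 by DESeq2, 2786 with no low-count filter, 2716 with the block, 2649 from the compared groups alone and 647 to 973 with a library left out. The CNS lines gave 1676, but 2857, 3051, 2849, 389 and 734 to 2322 in the same order. In embryo these were 805 (1476 by DESeq2, 2428 with the block, 425 to 527 with a library left out) and 900 (1701, 2484 and 507 to 711; 287 from the compared groups alone). Reciprocal hybrids in endosperm gave 47 standard calls (334 by DESeq2, 675 unfiltered, 266 with the block, 3 to 19 with a library left out) and 69 CNS calls (583, 1144, 499 and 6 to 253). From the compared groups alone these were 114 and 9. Standard hybrids against parents in endosperm gave 152 (359 by DESeq2, 694 unfiltered, 331 with the block, 277 from the compared groups alone). Reciprocal hybrids in embryo gave 1 standard call (0 with library totals or the compared groups alone, 2 with the block) and 0 CNS calls (15 by DESeq2, 4 unfiltered, 13 with the block). The tissue difference between sets gave 0 (54 by DESeq2, 3 unfiltered, 3 with the block). Maternal calls were 338, 102, 221 and 6 in standard endosperm, standard embryo, CNS endosperm and CNS embryo, and 5749, 7627, 3853 and 6031 under the other dosage. With a library left out they were 130 to 1139, 38 to 84, 113 to 165 and 1 to 525, and the C24 against Col calls were 244 to 2254, 1040 to 1369, 195 to 429 and 152 to 2142 in the same order. Causes were not tested. KAN1, ATHB8, CNA, KAN2 and YAB3 had the widest intervals within endosperm, where each had few reads or none.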
